A study of Komagataella pastoris with 6 samples.

Results

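The peroxins and other peroxisomal proteins of the methylotrophic yeast Komagataella were followed as transcripts in 6 RNA-seq libraries. Peroxisomes are single-membrane organelles that break down fatty acids and, in this yeast, carry out the first steps of methanol use. They have no DNA, so every protein is made in the cytosol and brought in. Peroxins are the proteins that do this: cytosolic receptors bind the targeting signals of matrix proteins, a docking complex at the membrane accepts the loaded receptors, and ubiquitin ligases with a pair of AAA ATPases return the receptors to the cytosol, while other peroxins insert membrane proteins or set the number and size of the organelles.

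The genes were taken from the deposited count table as those whose protein name or KEGG orthology description contains peroxin or peroxisom, leaving out alcohol oxidase, dihydroxyacetone synthase, catalase and entries that name acyl-CoA. Of 5427 genes, 41 matched and 2 were left out (a catalase and an acyl-CoA thioesterase), so 39 genes remained. The protein name matched alone for 23 of them, the KEGG description alone for 8 and both for 8, and 20 carry a peroxin number. The choice used annotation only and no measured value.

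The prototroph X33 (HIS4) in YPA (X33-YPA), the histidine auxotroph GS115 (his4) in YPA with 650 µM histidine (GS115-YPAH5x) and GS115 in YPA alone (GS115-YPA) were each sequenced in 2 libraries. YPA is a rich medium of yeast extract and peptone with acetate as carbon source, and all cultures were collected at 24 h. The labels give the species as K. pastoris and the study as K. phaffii, and the labels call both strains wild type in 1 field while giving the his4 genotype of GS115 in another. The study asked which genes respond to histidine in these cells. X33 and GS115 differ in strain as well as in histidine supply, and the 2 cannot be told apart in these comparisons. Growth stage at harvest is not in the labels, so it and histidine supply cannot be told apart either.

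Total counts per library lay between 32194047 and 43447246. Duplicates correlated at 0.992 in X33-YPA, 0.996 in GS115-YPAH5x and 0.985 in GS115-YPA over log2 counts scaled to library size (CPM) of all genes, as a description. The labels do not say that duplicates are separate cultures, so p-values measure the spread between these libraries. CPM here are scaled by TMM, which makes the bulk of genes equal across libraries, and are not divided by gene length, so levels are compared between libraries and not between genes. They are shares of a library, so they do not show the amount of RNA per cell, and they do not measure the number of peroxisomes per cell. No source used here says whether counting used strand, so neighbouring genes may share reads.

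Every one of the 39 genes had enough counts to be tested, the lowest count in any library being 41 (PEX30 in X33-YPA). In X33-YPA 13 of the 39 were upregulated and 10 downregulated relative to GS115-YPA at an adjusted p under 0.05 (edgeR quasi-likelihood test, Benjamini-Hochberg over 5426 genes). These are 33.3% and 25.6% of the genes, against 33.4% and 32.8% of all genes tested. In GS115-YPAH5x 12 were upregulated and 7 downregulated relative to GS115-YPA, or 30.8% and 17.9%, against 30.7% and 29.1% of all genes tested. Between X33-YPA and GS115-YPAH5x directly, 5 were higher and 5 lower in X33-YPA, 12.8% in each direction, against 19.8% and 21.6%. The share upregulated was thus near that of all genes in both comparisons with GS115-YPA, and the other shares were below those of all genes. The comparisons with GS115-YPA share its 2 libraries, so their results are given side by side and not counted as separate evidence.

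**Figure D1:**
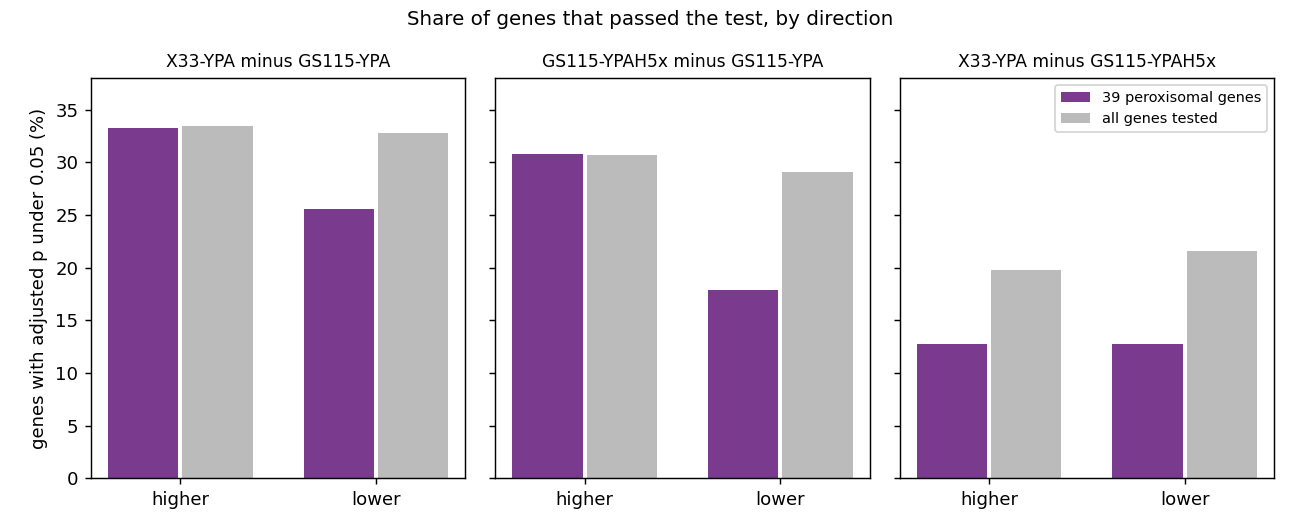
Share (%) of the 39 peroxisomal genes (purple) and of the 5426 genes tested (grey) with an adjusted p under 0.05, by direction, in each comparison. The purple and grey bars for higher genes are close in both comparisons with GS115-YPA (33.3% and 33.4%, 30.8% and 30.7%).

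The sizes were moderate. The median log2 fold change of the 39 genes was 0.12 in X33-YPA over GS115-YPA, -0.11 in GS115-YPAH5x over GS115-YPA and 0.10 in X33-YPA over GS115-YPAH5x, against 0.01, 0.00 and 0.03 over all genes tested. Without regard to sign the medians were 0.54, 0.42 and 0.31, against 0.68, 0.56 and 0.39. When a fold change of 1 or more on the log2 scale was also required, X33-YPA over GS115-YPA kept 5 higher and 3 lower genes (against 15.7% and 17.1% of all genes), GS115-YPAH5x over GS115-YPA kept 4 and 2 (against 12.8% and 12.6%), and X33-YPA over GS115-YPAH5x kept 0 and 2 (against 2.89% and 7.21%). For that 0, an unadjusted p under 0.05 and DESeq2 also gave 0. At the log2 fold change of 2 that the study used, the fall of PEX30 in X33-YPA relative to GS115-YPA was the only one left among the 39, and it was under that size without X33-YPA replicate 2 (-1.83). Of all genes tested, 2.54% were higher and 4.26% lower at that size in X33-YPA over GS115-YPA, 2.62% and 2.71% in GS115-YPAH5x over GS115-YPA, and 0.0369% and 0.737% in X33-YPA over GS115-YPAH5x.

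**Figure D2:**
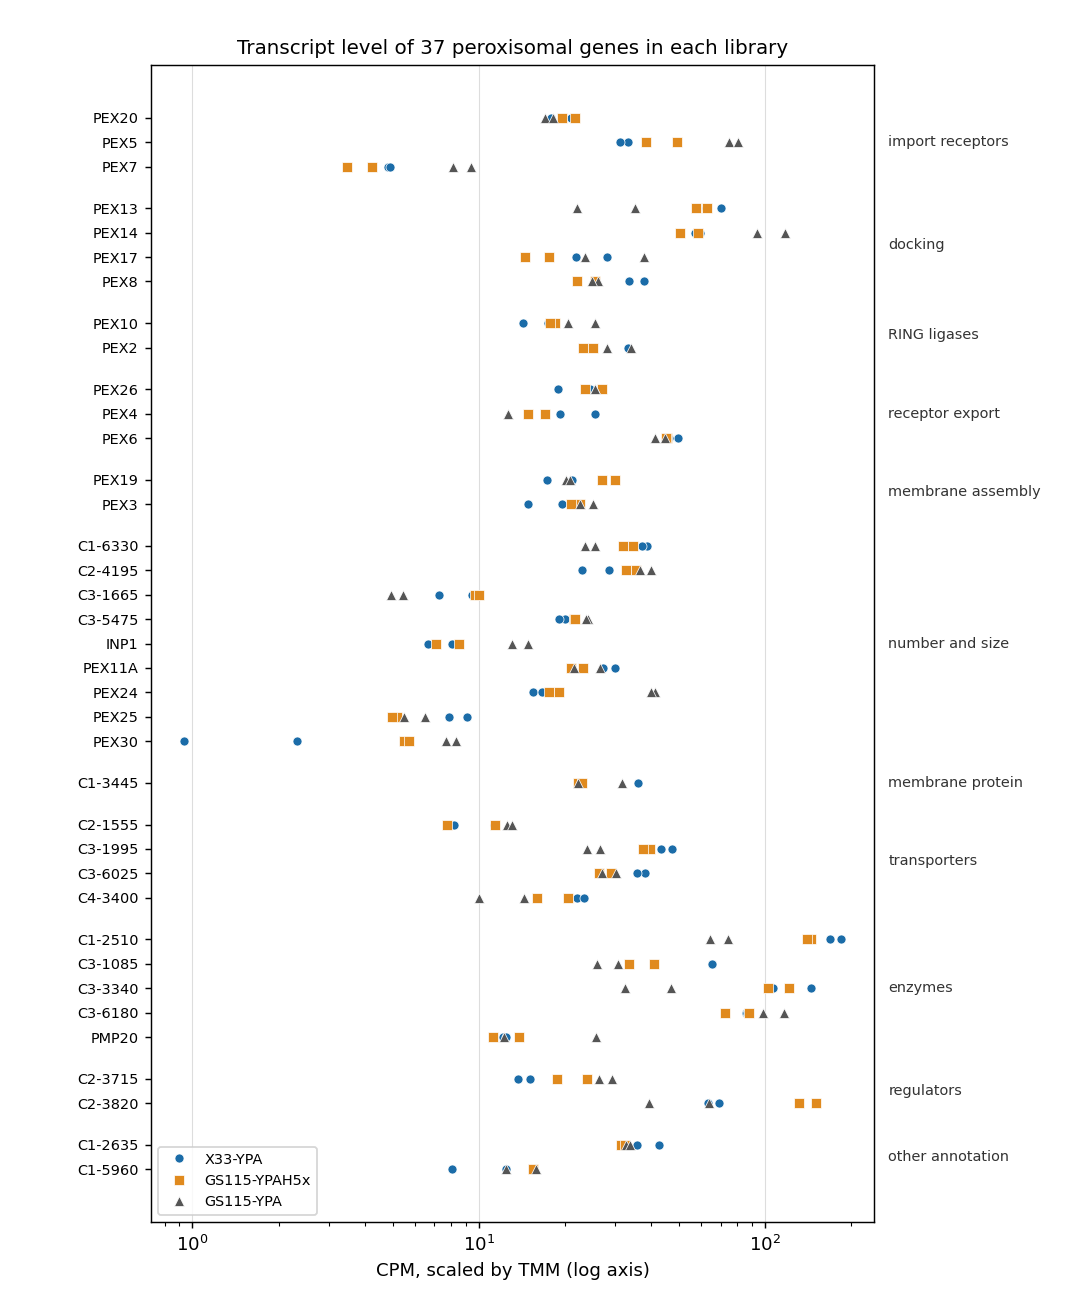
CPM scaled by TMM (log axis) of 37 of the 39 genes, grouped by role, in each library of X33-YPA (circles), GS115-YPAH5x (squares) and GS115-YPA (triangles). Locus tags are shortened to the part after BQ9382_. PEX5, PEX7, PEX14, PEX24 and INP1 are among the genes with both GS115-YPA libraries to the right of the other 4.

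Of the 3 receptors of matrix protein import, PEX5 and PEX7 were downregulated in both comparisons with GS115-YPA and PEX20 did not pass. PEX5 (BQ9382_C2-1075), the receptor for the C-terminal targeting signal that most matrix proteins carry, was at 33.3 and 31.2 CPM in X33-YPA, 49.3 and 38.6 in GS115-YPAH5x, and 74.8 and 80.8 in GS115-YPA. The 3 groups did not overlap, with X33-YPA lowest and GS115-YPA highest. PEX5 was downregulated in X33-YPA relative to GS115-YPA (log2 fold change -1.27 ± 0.15 SE, edgeR adjusted p = 5.53e-05) and in GS115-YPAH5x relative to GS115-YPA (-0.82 ± 0.15 SE, edgeR adjusted p = 0.00108). The direct difference was smaller (-0.45 ± 0.15 SE, edgeR adjusted p = 0.0383) and was lost under upper quartile scaling, with library totals alone and when any 1 of the X33-YPA or GS115-YPAH5x libraries was left out.

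PEX7 (BQ9382_C1-6445), the receptor for the N-terminal targeting signal, was at 4.81 and 4.90 CPM in X33-YPA, 4.25 and 3.48 in GS115-YPAH5x, and 9.38 and 8.16 in GS115-YPA. Both GS115-YPA libraries were well above the other 4. Its log2 fold change was -0.85 ± 0.20 SE in X33-YPA over GS115-YPA (edgeR adjusted p = 0.00369) and -1.18 ± 0.20 SE in GS115-YPAH5x over GS115-YPA (edgeR adjusted p = 0.00073), and the difference of 0.33 between X33-YPA and GS115-YPAH5x did not pass. PEX20 (BQ9382_C2-4515), the co-receptor that works with PEX7 in many fungi, lay at 21.1 and 18.0 CPM in X33-YPA, 21.7 and 19.5 in GS115-YPAH5x, and 17.1 and 18.2 in GS115-YPA. Its 3 groups lay close together, and it passed in no comparison.

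The 4 genes of the docking step moved in different directions. PEX14 (BQ9382_C4-0845), the docking peroxin that binds both receptors, was at 57.1 and 59.5 CPM in X33-YPA, 50.4 and 58.2 in GS115-YPAH5x, and 118 and 93.7 in GS115-YPA. X33-YPA and GS115-YPAH5x overlapped each other and stayed below both GS115-YPA libraries. It was downregulated in both comparisons, by a log2 fold change of -0.86 ± 0.15 SE for X33-YPA over GS115-YPA (edgeR adjusted p = 0.000731) and -0.96 ± 0.15 SE for GS115-YPAH5x over GS115-YPA (edgeR adjusted p = 0.000462).

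PEX13 (BQ9382_C2-1205), the membrane partner of PEX14 at the docking site, went the other way. It had 62.2 and 70.0 CPM in X33-YPA, 57.3 and 62.5 in GS115-YPAH5x, and 35.3 and 22.0 in GS115-YPA. The GS115-YPA duplicates were apart from each other, and both were below the other 4 libraries. PEX13 was upregulated (log2 scale) by 1.21 ± 0.20 SE in X33-YPA over GS115-YPA (edgeR adjusted p = 0.000533) and 1.07 ± 0.20 SE in GS115-YPAH5x over GS115-YPA (edgeR adjusted p = 0.00142), with 0.14 between X33-YPA and GS115-YPAH5x, which did not pass.

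PEX17 (BQ9382_C4-1810), a yeast docking subunit bound to PEX14, had 28.0 and 21.9 CPM in X33-YPA, 17.7 and 14.6 in GS115-YPAH5x, and 37.9 and 23.6 in GS115-YPA. X33-YPA overlapped GS115-YPA, while GS115-YPAH5x was below both other groups. It fell in GS115-YPAH5x relative to GS115-YPA (log2 fold change -0.93 ± 0.23 SE, edgeR adjusted p = 0.00632) and passed in neither other comparison. PEX8 (BQ9382_C1-5965), which in yeast sits on the inner face of the membrane and links the docking and ligase complexes, had 37.9 and 33.5 CPM in X33-YPA, 22.0 and 25.4 in GS115-YPAH5x, and 26.2 and 24.9 in GS115-YPA. Only the X33-YPA libraries stood apart, above the other 4. The log2 fold change was 0.48 ± 0.14 SE in X33-YPA over GS115-YPA (edgeR adjusted p = 0.0121) and 0.59 ± 0.14 SE over GS115-YPAH5x (edgeR adjusted p = 0.00957), against -0.11 in GS115-YPAH5x over GS115-YPA, which did not pass. Without X33-YPA replicate 1 neither PEX8 difference passed, and without GS115-YPAH5x replicate 1 the second did not.

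The RING peroxins are ubiquitin ligases that mark the receptors for release. PEX2 (BQ9382_C3-6335) passed in no comparison, with 33.2 and 24.5 CPM in X33-YPA, 25.0 and 23.2 in GS115-YPAH5x, and 34.0 and 28.2 in GS115-YPA. PEX10 (BQ9382_C1-7210) had 17.5 and 14.3 CPM in X33-YPA, 18.5 and 17.7 in GS115-YPAH5x, and 25.6 and 20.6 in GS115-YPA. Both X33-YPA libraries of PEX10 were the lowest of the 6 and both GS115-YPA libraries the highest. Its fall in X33-YPA relative to GS115-YPA (-0.54 ± 0.17 SE on the log2 scale, edgeR adjusted p = 0.0161) was the one PEX10 difference that passed, and it did not pass without GS115-YPA replicate 1 or without X33-YPA replicate 2.

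Among the genes of receptor export, PEX6 (BQ9382_C1-4750), an AAA ATPase that helps to pull ubiquitinated receptors out of the membrane, passed in no comparison. It had 49.7 and 46.3 CPM in X33-YPA, 45.6 and 45.0 in GS115-YPAH5x, and 41.3 and 44.7 in GS115-YPA, and the groups lay close together. PEX4 (BQ9382_C4-2505), the ubiquitin-conjugating enzyme of the receptor cycle, had 19.3 and 25.5 CPM in X33-YPA, 17.1 and 14.9 in GS115-YPAH5x, and 12.7 in both GS115-YPA libraries. The groups did not overlap, with X33-YPA highest and GS115-YPA lowest. PEX4 was higher in X33-YPA than in GS115-YPA (log2 fold change 0.82 ± 0.17 SE, edgeR adjusted p = 0.00209) and than in GS115-YPAH5x (0.48 ± 0.17 SE, edgeR adjusted p = 0.0461). The second of these passed narrowly and was lost with RLE scaling, without X33-YPA replicate 2 and without either GS115-YPAH5x library. GS115-YPAH5x over GS115-YPA gave 0.33, which did not pass. The locus tag next to it is PEX26 (BQ9382_C4-2510), named for the membrane anchor of the AAA ATPase complex in mammals, with 18.9 and 24.5 CPM in X33-YPA, 23.5 and 27.0 in GS115-YPAH5x, and 25.4 in both GS115-YPA libraries. PEX26 passed in no comparison.

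For assembly of the membrane itself, PEX19 (BQ9382_C2-3065), the carrier and chaperone of new membrane proteins, had 21.2 and 17.4 CPM in X33-YPA, 27.0 and 29.9 in GS115-YPAH5x, and 20.1 and 20.9 in GS115-YPA. The GS115-YPAH5x libraries were above the other 4. PEX19 rose in GS115-YPAH5x relative to GS115-YPA (0.47 ± 0.15 SE on the log2 scale, edgeR adjusted p = 0.0217) and was lower in X33-YPA than in GS115-YPAH5x (-0.56 ± 0.15 SE, edgeR adjusted p = 0.0151). The rise did not pass under upper quartile scaling, with library totals alone, without GS115-YPA replicate 1 or without either GS115-YPAH5x library, and the direct difference did not pass with library totals alone, without X33-YPA replicate 2 or without GS115-YPAH5x replicate 2. PEX3 (BQ9382_C3-0565), the membrane receptor for PEX19, had 19.6 and 14.8 CPM in X33-YPA, 22.6 and 21.0 in GS115-YPAH5x, and 22.6 and 25.2 in GS115-YPA. X33-YPA was below the other 4 libraries. PEX3 fell in X33-YPA relative to GS115-YPA (-0.48 ± 0.17 SE, edgeR adjusted p = 0.0284), although not with library totals alone, without X33-YPA replicate 2 or without GS115-YPA replicate 2.

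Of 9 genes that act on the number, size or inheritance of peroxisomes, 3 were upregulated and 4 downregulated in X33-YPA, and 2 were upregulated and 2 downregulated in GS115-YPAH5x, relative to GS115-YPA. These are 33.3% and 44.4%, against 33.4% and 32.8% of all genes tested, and 22.2% in each direction, against 30.7% and 29.1%. PEX30 (BQ9382_C3-3485), which in yeasts helps control where and how many peroxisomes form, was at 2.32 and 0.934 CPM in X33-YPA (83 and 41 counts), 5.47 and 5.73 in GS115-YPAH5x, and 7.71 and 8.36 in GS115-YPA. X33-YPA was the lowest group without overlap, although its duplicates were far apart in ratio. The log2 fold change was -2.33 ± 0.34 SE in X33-YPA over GS115-YPA (edgeR adjusted p = 0.000212) and -1.81 ± 0.34 SE over GS115-YPAH5x (edgeR adjusted p = 0.00346). GS115-YPAH5x over GS115-YPA gave -0.52 ± 0.31 SE, which did not pass (edgeR adjusted p = 0.171). PEX30 therefore passed only in the comparisons that include X33-YPA. Its size rested on the X33-YPA duplicate used: without replicate 1 the log2 fold change was -3.14 over GS115-YPA and -2.58 over GS115-YPAH5x, and without replicate 2 it was -1.83 and -1.27, all still past the test.

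PEX24 (BQ9382_C4-3685), a related membrane peroxin, showed another pattern. It was at 15.5 and 16.7 CPM in X33-YPA, 17.5 and 19.1 in GS115-YPAH5x, and 41.4 and 40.0 in GS115-YPA. Both X33-YPA and GS115-YPAH5x were far below GS115-YPA and close to each other. The log2 fold change was -1.34 ± 0.14 SE in X33-YPA over GS115-YPA, the smallest adjusted p among the 39 genes (edgeR, 2.05e-05), and -1.15 ± 0.14 SE in GS115-YPAH5x over GS115-YPA (edgeR adjusted p = 6.74e-05), with -0.19 between X33-YPA and GS115-YPAH5x, which did not pass. INP1 (BQ9382_C4-3130), which in Saccharomyces cerevisiae holds peroxisomes back in the mother cell, followed with 6.63 and 8.06 CPM in X33-YPA, 7.11 and 8.51 in GS115-YPAH5x, and 14.9 and 13.1 in GS115-YPA. Its 4 libraries with HIS4 or added histidine overlapped each other and were all below GS115-YPA. INP1 fell by 0.93 (edgeR adjusted p = 0.00148) in X33-YPA and by 0.84 (edgeR adjusted p = 0.00322) in GS115-YPAH5x on the log2 scale, relative to GS115-YPA.

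Members of the PEX11 family bend and elongate the membrane before division. PEX11A (BQ9382_C2-4255) passed in no comparison. PEX25 (BQ9382_C3-5480) had 7.89 and 9.08 CPM in X33-YPA, 5.19 and 4.97 in GS115-YPAH5x, and 6.51 and 5.48 in GS115-YPA, so that X33-YPA was the highest group. It was higher in X33-YPA than in GS115-YPAH5x (0.74 ± 0.19 SE on the log2 scale, edgeR adjusted p = 0.0135), a call lost without X33-YPA replicate 2 and without either GS115-YPAH5x library. Its difference between X33-YPA and GS115-YPA (0.50 ± 0.19 SE, edgeR adjusted p = 0.0392) was lost under upper quartile scaling, with only the 4 libraries compared and without any 1 library other than GS115-YPA replicate 1. The neighbouring BQ9382_C3-5475, named a peripheral membrane peroxin, passed in no comparison.

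The other 3 genes of this role are known only by description. BQ9382_C1-6330, a membrane protein named for negative regulation of peroxisome number, had 38.8 and 37.1 CPM in X33-YPA, 31.8 and 34.6 in GS115-YPAH5x, and 25.5 and 23.6 in GS115-YPA, 3 groups without overlap. It rose by 0.63 in X33-YPA (edgeR adjusted p = 0.00188) and by 0.44 in GS115-YPAH5x (edgeR adjusted p = 0.0158) on the log2 scale over GS115-YPA, and the second call was lost under upper quartile scaling, with library totals alone and without either GS115-YPAH5x library. BQ9382_C3-1665, an integral membrane peroxin with no number, rose by 0.69 in X33-YPA (edgeR adjusted p = 0.0103, not without X33-YPA replicate 1) and by 0.93 in GS115-YPAH5x (edgeR adjusted p = 0.00243). BQ9382_C2-4195, also described as an integral membrane peroxin, went down in X33-YPA relative to GS115-YPA (-0.57 on the log2 scale, edgeR adjusted p = 0.00667).

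**Figure D3:**
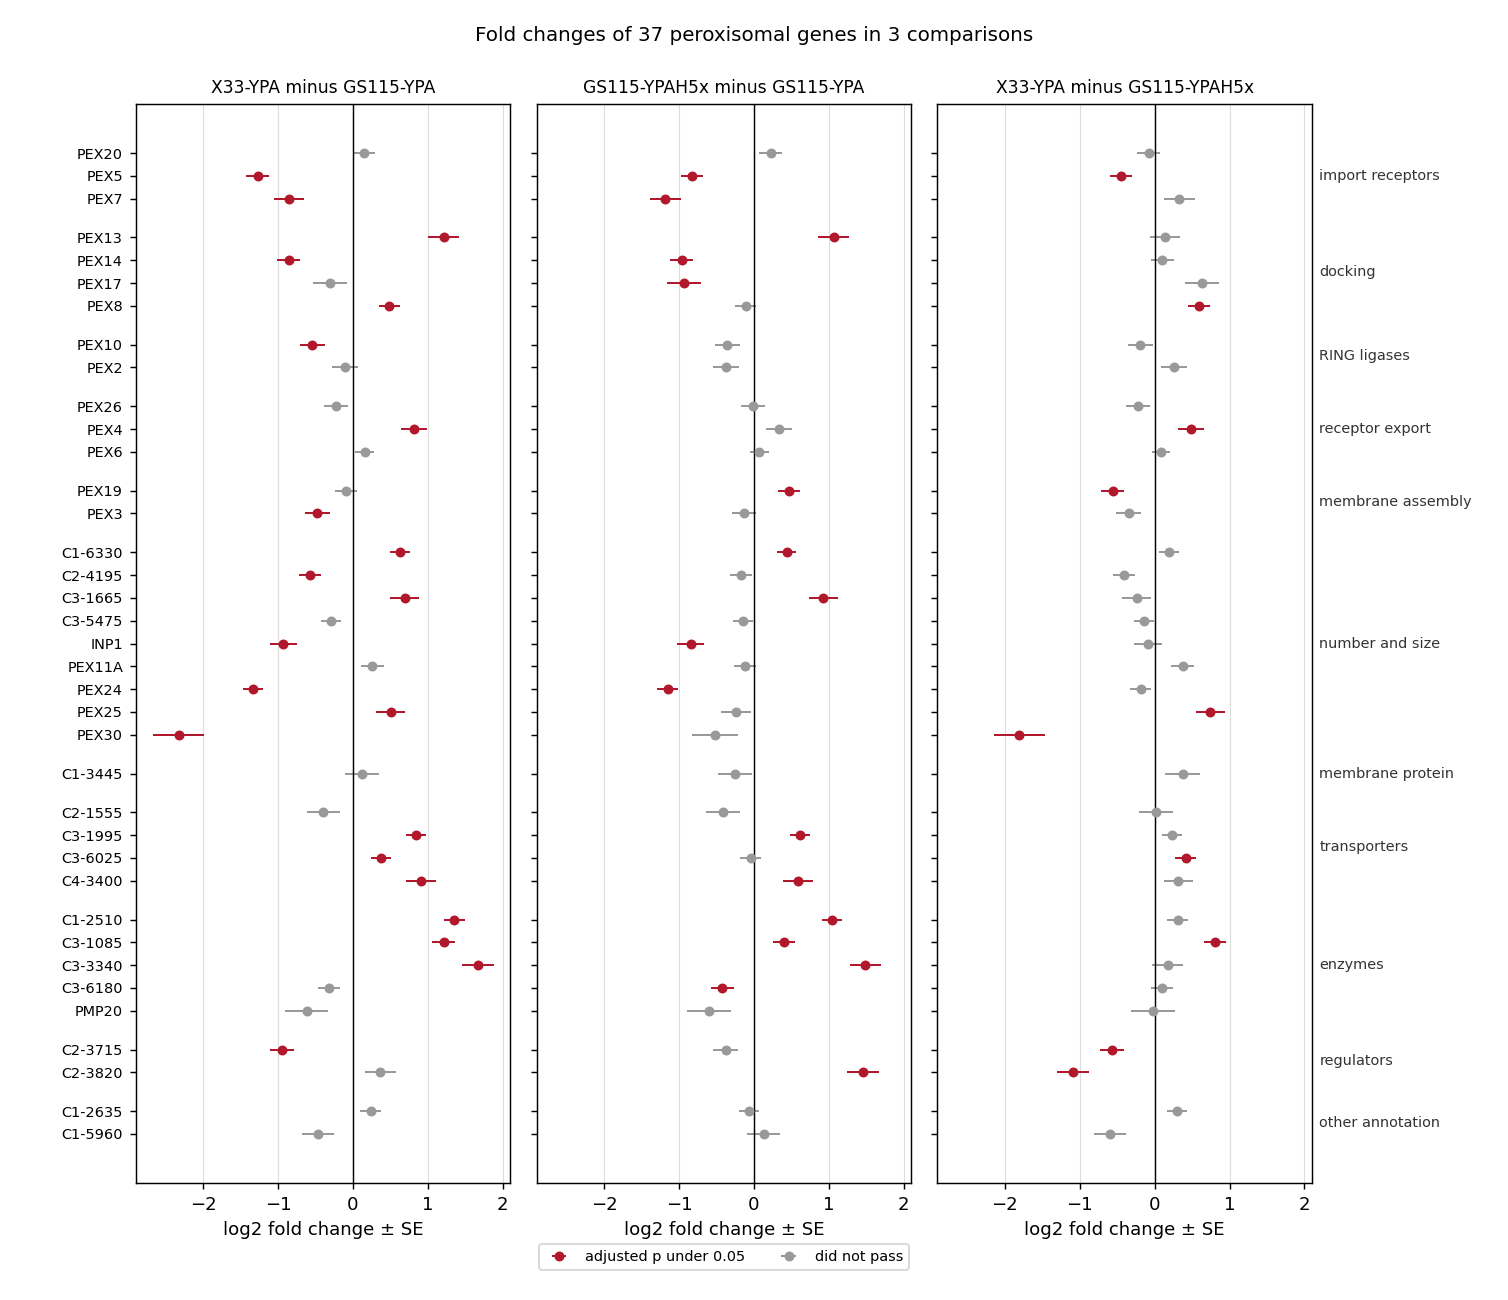
Log2 fold change ± SE of 37 of the 39 genes in the 3 comparisons, grouped by role; red marks an adjusted p under 0.05 and grey the rest. PEX30 lies at -2.33 in X33-YPA minus GS115-YPA and at -1.81 in X33-YPA minus GS115-YPAH5x, while the enzymes lie mostly to the right in both comparisons with GS115-YPA.

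Among the 5 enzymes, 3 were upregulated in both comparisons with GS115-YPA. The count is too small to set against the 33.4% and 30.7% of all genes tested that were upregulated in X33-YPA and in GS115-YPAH5x. The gene for the peroxisomal Lon protease (BQ9382_C1-2510), which removes damaged proteins from the matrix, was at 185 and 168 CPM in X33-YPA, 145 and 141 in GS115-YPAH5x, and 74.2 and 64.3 in GS115-YPA. The groups did not overlap, and GS115-YPA was lowest. The log2 fold change was 1.35 ± 0.14 SE in X33-YPA over GS115-YPA (edgeR adjusted p = 2.33e-05) and 1.04 ± 0.14 SE in GS115-YPAH5x over GS115-YPA (edgeR adjusted p = 0.000153), and the direct difference of 0.31 did not pass.

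The largest upward differences from GS115-YPA among the 39 genes, in both comparisons, were those of the nudix pyrophosphatase gene (BQ9382_C3-3340), whose product cleaves coenzyme A and its derivatives. It had 107 and 145 CPM in X33-YPA, 102 and 121 in GS115-YPAH5x, and 32.4 and 47.1 in GS115-YPA. Duplicates were apart in each group, yet all 4 libraries with HIS4 or added histidine were above both GS115-YPA libraries. The log2 fold change was 1.66 ± 0.21 SE in X33-YPA (edgeR adjusted p = 8.58e-05) and 1.49 ± 0.21 SE in GS115-YPAH5x (edgeR adjusted p = 0.00023), each over GS115-YPA.

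The gene for a peroxisomal 2,4-dienoyl-CoA reductase (BQ9382_C3-1085), an accessory enzyme for the breakdown of unsaturated fatty acids, was at 65.3 and 65.6 CPM in X33-YPA, 41.1 and 33.6 in GS115-YPAH5x, and 30.7 and 26.0 in GS115-YPA. X33-YPA was far above the rest, and GS115-YPAH5x was slightly above GS115-YPA without overlap. It was upregulated in X33-YPA over GS115-YPA (1.21 ± 0.15 SE on the log2 scale, edgeR adjusted p = 7.2e-05) and over GS115-YPAH5x (0.81 ± 0.15 SE, edgeR adjusted p = 0.00292). The smaller rise in GS115-YPAH5x over GS115-YPA (0.40, edgeR adjusted p = 0.0411) was lost under upper quartile scaling and with library totals alone. It was also lost with the filter at 10 CPM, with only the 4 libraries compared and without any 1 library other than GS115-YPA replicate 1. Another gene, BQ9382_C4-1095, is named a peroxisomal 2,4-dienoyl-CoA reductase only in its UniRef entry, so it was outside the name rule. This gene went the other way, with 14.2 and 17.3 CPM in X33-YPA, 22.3 and 25.5 in GS115-YPAH5x, and 38.7 and 28.6 in GS115-YPA. Its log2 fold change over GS115-YPA was -1.09 in X33-YPA (edgeR adjusted p = 0.0005) and -0.49 in GS115-YPAH5x (edgeR adjusted p = 0.0379).

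Carnitine acetyltransferase (BQ9382_C3-6180), which makes acetyl units ready to leave the organelle and is named as both mitochondrial and peroxisomal, was at 85.6 and 86.7 CPM in X33-YPA, 88.3 and 72.3 in GS115-YPAH5x, and 98.2 and 117 in GS115-YPA. Both GS115-YPA libraries were above the other 4. It was lower in GS115-YPAH5x than in GS115-YPA (-0.42 on the log2 scale, edgeR adjusted p = 0.0349). This call was lost with only the 4 libraries compared, without GS115-YPA replicate 2 and without GS115-YPAH5x replicate 2. PMP20 (BQ9382_C1-7065), a peroxiredoxin that protects methylotrophic yeasts from peroxide, had 12.1 and 12.5 CPM in X33-YPA, 11.2 and 13.8 in GS115-YPAH5x, and 25.7 and 12.2 in GS115-YPA. One GS115-YPA library was high and its duplicate was level with the other groups, and PMP20 passed in no comparison.

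Of the 4 transporter genes, 3 were upregulated in X33-YPA and 2 in GS115-YPAH5x relative to GS115-YPA, and none was downregulated, a count too small to set against the 33.4% and 30.7% of all genes that were upregulated. BQ9382_C3-1995, 1 of a pair annotated as PXA, the ABC transporter that imports long-chain fatty acids, was at 47.3 and 43.2 CPM in X33-YPA, 39.6 and 37.6 in GS115-YPAH5x, and 26.5 and 23.9 in GS115-YPA. The groups did not overlap, and the log2 fold change over GS115-YPA was 0.84 in X33-YPA (edgeR adjusted p = 0.00033) and 0.62 in GS115-YPAH5x (edgeR adjusted p = 0.00289). The other PXA gene, BQ9382_C2-1555, had 11.3 and 8.20 CPM in X33-YPA, 11.4 and 7.78 in GS115-YPAH5x, and 12.6 and 13.0 in GS115-YPA and passed in no comparison. The 2 genes of this transporter therefore did not pass together in either comparison.

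BQ9382_C4-3400, named a potential peroxisomal adenine nucleotide transporter, which would supply ATP to the matrix, had 22.1 and 23.3 CPM in X33-YPA, 20.5 and 16.0 in GS115-YPAH5x, and 14.4 and 9.99 in GS115-YPA. It was upregulated by 0.90 in X33-YPA (edgeR adjusted p = 0.00282) and by 0.58 in GS115-YPAH5x (edgeR adjusted p = 0.029) on the log2 scale, the second call being lost under upper quartile scaling, with library totals alone and without any 1 of 4 libraries. BQ9382_C3-6025 is a peroxisomal adenine nucleotide carrier by its KEGG description and a mitochondrial NAD+ carrier by its protein name, so its place is uncertain. It was higher in X33-YPA than in either GS115 group (0.37 over GS115-YPA, edgeR adjusted p = 0.0335, and 0.41 over GS115-YPAH5x, edgeR adjusted p = 0.0342). Both calls were lost when any 1 X33-YPA or GS115-YPAH5x library was left out. The call over GS115-YPA was also lost with the filter at 10 CPM, with only the 4 libraries compared and without GS115-YPA replicate 2. BQ9382_C1-3445, a peroxisomal membrane protein of unstated function, passed in no comparison.

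Both genes named as transcriptional regulators of peroxisome proliferation changed, in different ways. BQ9382_C2-3715 was at 13.7 and 15.1 CPM in X33-YPA, 24.0 and 18.8 in GS115-YPAH5x, and 26.2 and 29.3 in GS115-YPA. The groups did not overlap, with X33-YPA lowest. It was downregulated in X33-YPA relative to GS115-YPA (-0.95 ± 0.16 SE on the log2 scale, edgeR adjusted p = 0.000606) and to GS115-YPAH5x (-0.57 ± 0.16 SE, edgeR adjusted p = 0.0202), the second not under upper quartile scaling, with library totals alone, without either X33-YPA library or without GS115-YPAH5x replicate 1. GS115-YPAH5x over GS115-YPA gave -0.38, which did not pass in the main fit. This difference did pass under upper quartile scaling (-0.51), with library totals alone (-0.58) and with the filter at 10 CPM (-0.43). It was -0.50 without GS115-YPA replicate 1 and -0.29 without GS115-YPA replicate 2.

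BQ9382_C2-3820, whose KEGG description is HAP1, a heme-responsive activator in Saccharomyces cerevisiae, was the one gene of the 39 with a log2 fold change over 1 in GS115-YPAH5x relative to both other groups. It had 69.3 and 63.5 CPM in X33-YPA, 151 and 131 in GS115-YPAH5x, and 39.3 and 63.9 in GS115-YPA. X33-YPA and GS115-YPA overlapped, and both GS115-YPAH5x libraries were above all others. The log2 fold change was 1.45 ± 0.21 SE in GS115-YPAH5x over GS115-YPA (edgeR adjusted p = 0.000265) and -1.09 ± 0.21 SE in X33-YPA over GS115-YPAH5x (edgeR adjusted p = 0.00359). X33-YPA over GS115-YPA gave 0.36, which did not pass (edgeR adjusted p = 0.149). That value rested on the GS115-YPA duplicate used, being 0.01 without replicate 1 and 0.76 without replicate 2.

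**Figure D4:**
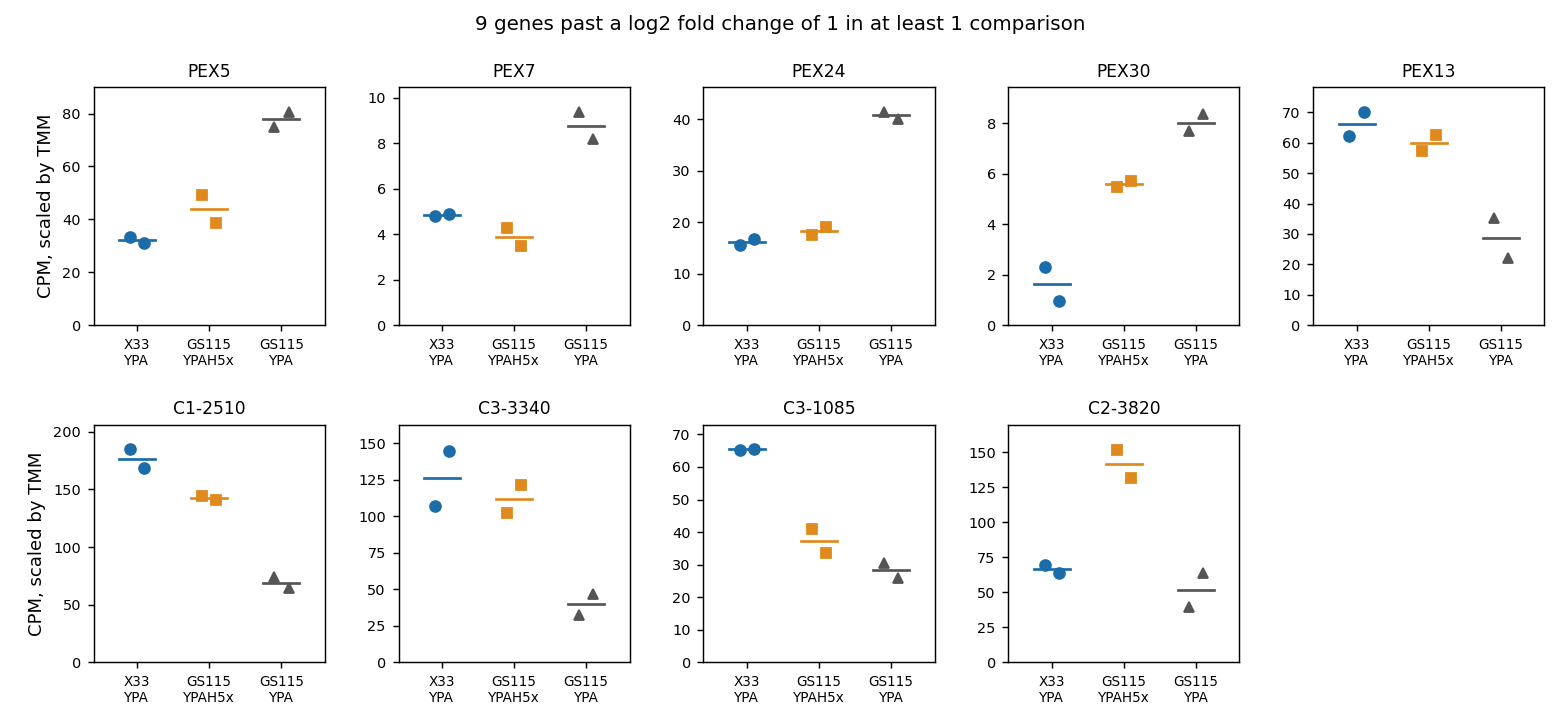
CPM scaled by TMM of 9 of the 10 genes that passed the test with a log2 fold change of 1 or more, up or down, in at least 1 comparison; points are libraries, lines are means of 2. By mean, PEX5, PEX7, PEX24 and PEX30 are highest in GS115-YPA, 4 genes are lowest in GS115-YPA with X33-YPA highest, and BQ9382_C2-3820 is highest in GS115-YPAH5x.

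A pair of genes met the name rule with doubtful annotation, and neither passed in any comparison. BQ9382_C1-5960 is named peroxisomal biogenesis factor 8 like its neighbour PEX8, but its UniRef entry is a cell wall integrity protein, and it had 12.5 and 8.04 CPM in X33-YPA, 15.5 and 15.4 in GS115-YPAH5x, and 15.8 and 12.5 in GS115-YPA. BQ9382_C1-2635 is a peroxisome-assembly ATPase by its KEGG description and a chaperone of cytochrome c oxidase turnover by its protein name. In all, 11 of the 39 genes passed in none of the 3 comparisons. The share of all genes tested that did so was not counted, so nothing more is read from this number.

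Split by name, the 20 genes with a peroxin number had 5 upregulated and 7 downregulated in X33-YPA and 4 upregulated and 5 downregulated in GS115-YPAH5x, relative to GS115-YPA. The other 19 had 8 upregulated and 3 downregulated in X33-YPA and 8 upregulated and 2 downregulated in GS115-YPAH5x. Of all genes tested, 33.4% were up and 32.8% down in X33-YPA, and 30.7% up and 29.1% down in GS115-YPAH5x, and the shares of the numbered genes, 25.0% and 35.0%, then 20% and 25%, were near or below these, while those of the other 19 were 42.1% and 15.8%, then 42.1% and 10.5%. No test was made of the difference between these lists. Summed over the 39 genes, the level was 1372 and 1374 CPM in X33-YPA, 1355 and 1316 in GS115-YPAH5x, and 1228 and 1174 in GS115-YPA. With TMM scaling GS115-YPA was therefore lowest, but as a share of raw counts the sums were 0.152% and 0.144% in X33-YPA, 0.122% and 0.118% in GS115-YPAH5x, and 0.130% and 0.118% in GS115-YPA, so that GS115-YPAH5x and GS115-YPA overlapped.

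Enzymes of methanol use and fatty acid breakdown were counted separately, by name patterns that also caught proteins outside peroxisomes. Of 5 methanol oxidation enzymes and catalase, 3 were upregulated and 1 downregulated in X33-YPA, and 2 upregulated and 1 downregulated in GS115-YPAH5x, relative to GS115-YPA, where all genes tested had 33.4% up and 32.8% down in X33-YPA and 30.7% up and 29.1% down in GS115-YPAH5x. Alcohol oxidase 1 (BQ9382_C4-0695), the first enzyme of methanol use, had 371 and 430 CPM in X33-YPA, 50.9 and 43.9 in GS115-YPAH5x, and 10.7 and 10.9 in GS115-YPA. Its log2 fold change over GS115-YPA was 5.21 in X33-YPA and 2.13 in GS115-YPAH5x (edgeR adjusted p = 6.66e-08 and 3.23e-06), far beyond any of the 39 genes in X33-YPA. A second gene carries the same protein name, and reads from near-identical copies may be split between them. Of 12 genes matched as fatty acid beta-oxidation, 5 (41.7%) were upregulated and 2 (16.7%) downregulated in X33-YPA, and 6 (50.0%) were upregulated and 3 (25.0%) downregulated in GS115-YPAH5x, against the same shares of all genes. The list holds 5 genes annotated as mitochondrial and a 3-hydroxyisobutyryl-CoA hydrolase, so its counts do not describe peroxisomal beta-oxidation alone. Both genes downregulated in X33-YPA, and 2 of the 3 in GS115-YPAH5x, are annotated as mitochondrial carriers. The remaining gene, BQ9382_C2-2715, is annotated as a multifunctional beta-oxidation protein, peroxisomal by its UniRef entry. Its log2 fold change over GS115-YPA was -0.37 in GS115-YPAH5x (edgeR adjusted p = 0.0449). In X33-YPA it was -0.28, which did not pass (edgeR adjusted p = 0.111). One of the carrier genes, BQ9382_C4-5065, was at 24.9 and 28.9 CPM in X33-YPA, 18.98 and 22.8 in GS115-YPAH5x, and 57.8 and 54.9 in GS115-YPA. It had the smallest adjusted p of the list in both comparisons with GS115-YPA, with a log2 fold change of -1.06 in X33-YPA (edgeR adjusted p = 0.000141) and -1.43 in GS115-YPAH5x (edgeR adjusted p = 3.16e-05). The 3-ketoacyl-CoA thiolase gene (BQ9382_C2-1530), which performs the last step of the cycle, had a log2 fold change of 1.03 in X33-YPA and 0.88 in GS115-YPAH5x over GS115-YPA.

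Autophagy, by which peroxisomes can be removed, was counted over 14 genes named for autophagy or pexophagy. Most of the 14 are named for autophagy in general, so the counts do not describe removal of peroxisomes alone. In X33-YPA 2 (14.3%) were upregulated and 9 (64.3%) downregulated, against 33.4% and 32.8% of all genes tested, and in GS115-YPAH5x 1 (7.14%) was upregulated and 7 (50.0%) downregulated, against 30.7% and 29.1%, relative to GS115-YPA, with median log2 fold changes of -0.52 and -0.43. ATG30 (BQ9382_C3-1735), the receptor that links peroxisomes to the autophagy machinery in this yeast, was at 41.4 and 35.5 CPM in X33-YPA, 99.6 and 94.8 in GS115-YPAH5x, and 122 and 198 in GS115-YPA. The groups did not overlap, with X33-YPA lowest and the GS115-YPA duplicates apart. ATG30 was downregulated in both comparisons with GS115-YPA (-2.05 ± 0.22 SE on the log2 scale in X33-YPA, edgeR adjusted p = 2.59e-05, and -0.72 ± 0.21 SE in GS115-YPAH5x, edgeR adjusted p = 0.0142). It was also lower in X33-YPA than in GS115-YPAH5x (-1.34 ± 0.21 SE, edgeR adjusted p = 0.00149). BQ9382_C1-7100, whose protein name is an adapter for pexophagy, passed in no comparison. Its log2 fold change over GS115-YPA was -0.19 in X33-YPA (edgeR adjusted p = 0.336) and -0.04 in GS115-YPAH5x (edgeR adjusted p = 0.857).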

How the data were processed

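Per the submitters' processing notes, reads were processed with bcl2fastq 2.19.0.316, fastp 0.19.6, Bowtie2 and featureCounts 1.6.4, and DESeq2 is also listed. The authors deposited 1 table of raw read counts per gene for the 6 libraries, with annotation columns. The genome build and the strand setting were not given in the sources used here. Total counts were 32194047 to 43447246 per library.

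Counts of all genes were fitted with the edgeR 4.0.16 quasi-likelihood test (R 4.3.3, limma 3.58.1, TMM scaling, filterByExpr, residual df 3, common biological coefficient of variation 0.132). Of 5427 genes 5426 were tested, and p-values were adjusted by Benjamini-Hochberg over all of them with a threshold of 0.05. The test was tried on simulated data first. Alternatives were DESeq2 1.42.0, RLE and upper quartile scaling, library totals alone, no filter, at least 10 CPM in at least 2 libraries, the robust option, only the 4 libraries compared, and leaving out each library.

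The 39 genes and the other lists were chosen with earlier results of these data known. Genes described with per-library values are those past the test with a log2 fold change of 1 or more in either direction, the numbered peroxins of import, docking, ligase, export and membrane steps, and the genes of highest and lowest mean CPM (not per length, so no ranking of expression). Values of 2 of the 39 genes are not reported here, although the counts include them. Values of other genes were added after they were seen. From the other lists, most genes given with values were among the 2 with the smallest adjusted p in a comparison. The exceptions, BQ9382_C1-7100 and BQ9382_C2-2715, were added with their values known. Roles were grouped by hand from the annotation. Gene names are from the peroxin numbers in the table, otherwise locus tags are given. The RefSeq gene table supplied is of another assembly and was not used.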

Additional observations from a re-analysis of the deposited data

How the results depend on the processing

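With 2 libraries per group and 3 residual degrees of freedom, small differences cannot be told from the spread. No paired analysis was possible because the labels carry the letters A to F and no replicate number shared between groups. Of the 52 differences that passed among the 39 genes, 33 passed under every one of the 14 alternative fits in which they were tested (17 in X33-YPA over GS115-YPA, 13 in GS115-YPAH5x over GS115-YPA and 3 in X33-YPA over GS115-YPAH5x), 40 passed under the 7 that keep all libraries, and 0 reversed. The counts of higher and lower genes at a log2 fold change of 1 or more in size were 5 and 3 in X33-YPA over GS115-YPA, 4 and 2 in GS115-YPAH5x over GS115-YPA, and 0 and 2 in X33-YPA over GS115-YPAH5x. At 2 or more they were 0 and 1, 0 and 0, and 0 and 0, and DESeq2 and an unadjusted p under 0.05 gave the same counts of 0.

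Scaling moved the counts that involve GS115-YPAH5x. With upper quartile scaling 7 genes were higher in GS115-YPAH5x than in GS115-YPA, while X33-YPA over GS115-YPAH5x gave 10 higher and 3 lower. With library totals alone these were 7, 16 and 2, and 12 genes were lower in GS115-YPAH5x than in GS115-YPA. PEX24, which did not pass in X33-YPA over GS115-YPAH5x, had a log2 fold change of 0.0805 there with library totals alone, against -0.19 with TMM. The median log2 fold change of all genes shifted to -0.13 and -0.20 in GS115-YPAH5x over GS115-YPA and to 0.15 and 0.29 in X33-YPA over GS115-YPAH5x under upper quartile scaling and totals alone. The split of all genes into higher and lower was 1381 and 1864, then 1228 and 2031, against 1667 and 1579 with TMM, in GS115-YPAH5x over GS115-YPA, and 1482 and 937, then 2040 and 671, against 1075 and 1172 with TMM, in X33-YPA over GS115-YPAH5x. With only the 4 libraries compared, 9 genes were higher in X33-YPA than in GS115-YPAH5x, while of all genes 1363 were, against 1075 in the main fit.

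Leaving out each library in turn gave 9 to 13 higher and 8 to 12 lower genes in X33-YPA over GS115-YPA, 7 to 11 and 6 to 9 in GS115-YPAH5x over GS115-YPA, and 1 to 9 and 2 to 7 in X33-YPA over GS115-YPAH5x. The lone duplicate left is then assumed to vary like the other groups. The 7 came without GS115-YPAH5x replicate 1. In X33-YPA over GS115-YPAH5x, fewer genes were higher without any 1 X33-YPA or GS115-YPAH5x library, and more were without either GS115-YPA library. Fewer were lower without X33-YPA replicate 2 or without either GS115-YPAH5x library. Over all genes tested, the numbers higher and lower moved the same way in each of these fits. The cause of these moves was not tested.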

Other observations

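Some genes described as peroxisomal only in their UniRef entry were outside the name rule, and they were looked at after the table had been seen. BQ9382_C1-6975, a peroxisomal biogenesis factor by UniRef, was at 4.42 and 4.10 CPM in X33-YPA, 6.47 and 7.98 in GS115-YPAH5x, and 8.13 and 6.80 in GS115-YPA. X33-YPA was below both GS115 groups, which overlapped each other. It was downregulated in X33-YPA relative to GS115-YPA (-0.81 on the log2 scale, edgeR adjusted p = 0.00581) and to GS115-YPAH5x (-0.76, edgeR adjusted p = 0.0154). BQ9382_C1-2160, an oleate-induced peroxisomal protein, had 26.3 and 18.2 CPM in X33-YPA, against 14.6 and 8.0 in GS115-YPA, a log2 fold change of 0.98 (edgeR adjusted p = 0.0235). BQ9382_C1-5175, a matrix lipase, had 8.88 and 11.5 CPM in GS115-YPAH5x, against 6.41 and 7.70 CPM in GS115-YPA, and was higher in GS115-YPAH5x than in GS115-YPA (0.53, edgeR adjusted p = 0.0445).

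Of 4 genes matched for organelle fission, which peroxisomes and mitochondria share in part, 2 were upregulated and 2 downregulated in X33-YPA (against 33.4% and 32.8% of all genes tested) and 2 were upregulated and 1 downregulated in GS115-YPAH5x (against 30.7% and 29.1%), relative to GS115-YPA. An upregulated one in both, BQ9382_C2-5905, is annotated as a mitochondrial dynamin-like GTPase in a complex with Ugo1p and Fzo1p, which in Saccharomyces cerevisiae act in mitochondrial fusion. The dynamin-related gene BQ9382_C3-2385 was at 53.0 and 50.5 CPM in X33-YPA, 77.2 and 84.3 in GS115-YPAH5x, and 81.1 and 107 in GS115-YPA. It was downregulated in X33-YPA relative to GS115-YPA (-0.86 on the log2 scale, edgeR adjusted p = 0.000859) and to GS115-YPAH5x (-0.64, edgeR adjusted p = 0.0104). The pattern for the glyoxylate cycle, part of which runs in peroxisomes, matched 4 genes, of which 1 is an isopropylmalate synthase of leucine synthesis. In both groups set against GS115-YPA, 1 of the 4 was upregulated and 2 were downregulated, against the same shares of all genes. Isocitrate lyase (BQ9382_C1-5905), the entry enzyme of the cycle, had 1745 and 1586 CPM in X33-YPA, 2313 and 2359 in GS115-YPAH5x, and 1153 and 1169 in GS115-YPA. It was upregulated by 0.52 in X33-YPA and by 1.01 in GS115-YPAH5x on the log2 scale (edgeR adjusted p = 0.00662 and 0.000161). Malate synthase 2 (BQ9382_C4-4310), which makes malate from glyoxylate, had 2758 and 2791 CPM in X33-YPA, 6289 and 6461 in GS115-YPAH5x, and 4794 and 5882 in GS115-YPA. It was downregulated in X33-YPA relative to GS115-YPA (-0.94, edgeR adjusted p = 0.000342) and to GS115-YPAH5x (-1.20, edgeR adjusted p = 0.000542), while GS115-YPAH5x did not pass against GS115-YPA (0.26).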
